A study of Mus musculus with 8 samples.

Results

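The regions described here are the accessible regions of distal mouse chromosome 6 that lie outside the natural killer (NK) gene complex. They were chosen by position: union regions of the 8 deposited peak lists on chromosome 6 that start at 110000000 or later (GRCm38/mm10), leaving out 128000000 to 131500000, where the NK complex lies. The rule gave 3185 of the 175276 union regions, from 112191197 to 149586557, with a median width of 250 bp. The interval was proposed because genotype calls had been seen to gather there. Every genotype value below is therefore a description without a test, and only the comparison of IL-2 with no IL-2, which the rule did not use, was tested.

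Open chromatin was mapped with ATAC-seq, where a transposase cuts and tags accessible DNA, in naive CD4 T cells sorted from mouse spleen. All cells were activated with antibodies to CD3 (0.25 µg/mL) and CD28 (1 µg/mL) in the presence of 20 ng/mL TGF-β and were harvested at 48 h, with 90000 cells per library. The 4 groups of 2 libraries were control cells labelled WT, cells labelled Tet1/3 cDKO, which the design text calls Tet1/3-deficient, and both genotypes with 100 U of added IL-2. The design text calls the replicates biological, but the sources used here give neither the animals they came from nor their strain, age or Cre driver. Permutation p-values therefore measure only the spread between these libraries.

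TET enzymes oxidise 5-methylcytosine in DNA, a step towards removal of the methyl mark, and TET proteins act at enhancers of T cells. TGF-β together with T cell receptor stimulation drives naive CD4 T cells towards induced regulatory T cells, and IL-2 supports that fate. The arm of chromosome 6 around the NK complex holds T cell genes such as Cd4, Lag3 and Cd27, the cyclin D2 gene Ccnd2 and the gene of the ETS-family repressor Etv6. Tet3 itself is on chromosome 6, at 83362373 to 83457208, which is 26.5 Mb before the start of the interval. Tet1 is on chromosome 10.

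Promoter sequences are shown for 3 members that overlap the 250 bases before a gene's annotated start and whose listing or ranks differed between genotypes. Listing differed only for the member at Pde6h. The members at Caprin2 and Bcat1 were listed in every library and differed in rank. The member at Pde6h, a cone photoreceptor phosphodiesterase subunit, is the only promoter among the members that were present in every library of one genotype and absent from the other. The Pde6h window precedes an annotated start inside the gene body, which itself begins at 136952218. The member at Caprin2, an RNA-binding protein, ranked better in every cDKO library than in any control library. The member at Bcat1, the cytosolic branched-chain amino acid aminotransferase, ranked better in every control library. Sequences are from RefSeq, build GRCm38.p6, 5′ to 3′ on the gene's strand, and cover the 250 bases before the annotated start. They are chr6:136954273-136954522 on the plus strand (Pde6h), chr6:148896238-148896487 on the minus strand (Caprin2) and chr6:145076158-145076407 on the minus strand (Bcat1). Capitals mark matches on either strand to motifs of transcription factors that are active in T cells. AP-1 factors bind TGANTCA and ETS factors bind CCGGAAG. RUNX factors bind TGTGGTT, and STAT proteins bind paired half-sites of the form TTCNNNGAA. Zinc finger factors of the Gata3 family bind GATAAG.
Pde6h: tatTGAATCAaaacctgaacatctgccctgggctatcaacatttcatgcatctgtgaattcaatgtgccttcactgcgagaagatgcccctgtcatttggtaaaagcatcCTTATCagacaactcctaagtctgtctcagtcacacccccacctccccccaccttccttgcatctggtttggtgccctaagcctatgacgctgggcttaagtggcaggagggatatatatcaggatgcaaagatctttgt
Caprin2: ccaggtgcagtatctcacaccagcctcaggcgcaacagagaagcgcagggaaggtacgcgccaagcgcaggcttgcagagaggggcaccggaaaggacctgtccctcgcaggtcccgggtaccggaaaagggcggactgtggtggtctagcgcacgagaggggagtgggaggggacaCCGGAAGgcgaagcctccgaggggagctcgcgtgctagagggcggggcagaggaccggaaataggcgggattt
Bcat1: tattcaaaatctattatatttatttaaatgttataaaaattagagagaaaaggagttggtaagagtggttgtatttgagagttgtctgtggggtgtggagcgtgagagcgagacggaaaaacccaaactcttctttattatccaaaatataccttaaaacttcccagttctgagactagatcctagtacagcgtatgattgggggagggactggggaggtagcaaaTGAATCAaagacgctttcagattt

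The Pde6h window held 1 match to TGANTCA and 1 to GATAAG, with 2 CG dinucleotides and 47.2% G and C. The Caprin2 window held 1 match to CCGGAAG, with 20 CG dinucleotides and 65.6% G and C. The Bcat1 window held 1 match to TGANTCA, with 5 CG dinucleotides and 37.6% G and C. Among all 32817 promoter windows of the same length, TGANTCA was found in 6.75%, CCGGAAG in 6.90%, TGTGGTT in 4.39%, TTCNNNGAA in 7.01% and GATAAG in 6.55%, and the median CG count was 6. For the 594 windows of the distal interval the shares were 5.72%, 7.41%, 3.87%, 6.57% and 6.90%. A match is a description of the letters and not evidence of a bound site.

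The lists differ in length, from 65811 to 145979 peaks, so each library was cut to its 65811 peaks of highest −log10 p, called equal-number lists below. The library with the shortest list, control plus IL-2 replicate 2, has no peaks beyond that number. Read depth is unknown from these files. Of the 3185 members, 1733 were in at least 1 equal-number list, 1161 were in 4 or more, 655 were in all 8 and 179 were in exactly 4. The number of members per equal-number list was close between libraries: 1115 and 1100 in control, 1133 and 1159 in cDKO, 1084 and 1099 in control plus IL-2, and 1102 and 1128 in cDKO plus IL-2. The 8 CD4 T cell marker genes, among them Cd3e, Cd4 and Lck, had a listed region within 1 kb of a gene end in all 8 libraries. Of the markers of other cells, 1 to 2 of 4 CD8 T and NK cell genes, 2 to 3 of 5 B cell genes, 2 to 3 of 5 myeloid genes and 1 to 2 of 3 erythroid genes had one in each library. Cd8b1, Cd79a, Ebf1, Spi1, Itgam and Klf1 had one in all 8 libraries, and Ncr1, Klrk1, Pax5, Lyz2, Csf1r and Gata1 had none in any.

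A member was called higher in cDKO when all 4 cDKO libraries listed it and no control library did, and lower in the reverse case. By this rule 49 of the 1161 members listed in 4 or more libraries were higher in cDKO (4.22%), where the share over all 64597 such regions of the genome was 1.05%. Another 36 were lower in cDKO (3.10%), where the genome-wide share was 1.66%. Among chromosome 6 regions before the interval the shares were 1.59% higher and 1.45% lower, in the NK complex interval 0.806% and 2.42%, and on the other chromosomes 0.969% and 1.64%. In bulk libraries a region open in fewer cells and a region less open per cell cannot be told apart.

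**Figure D1:**
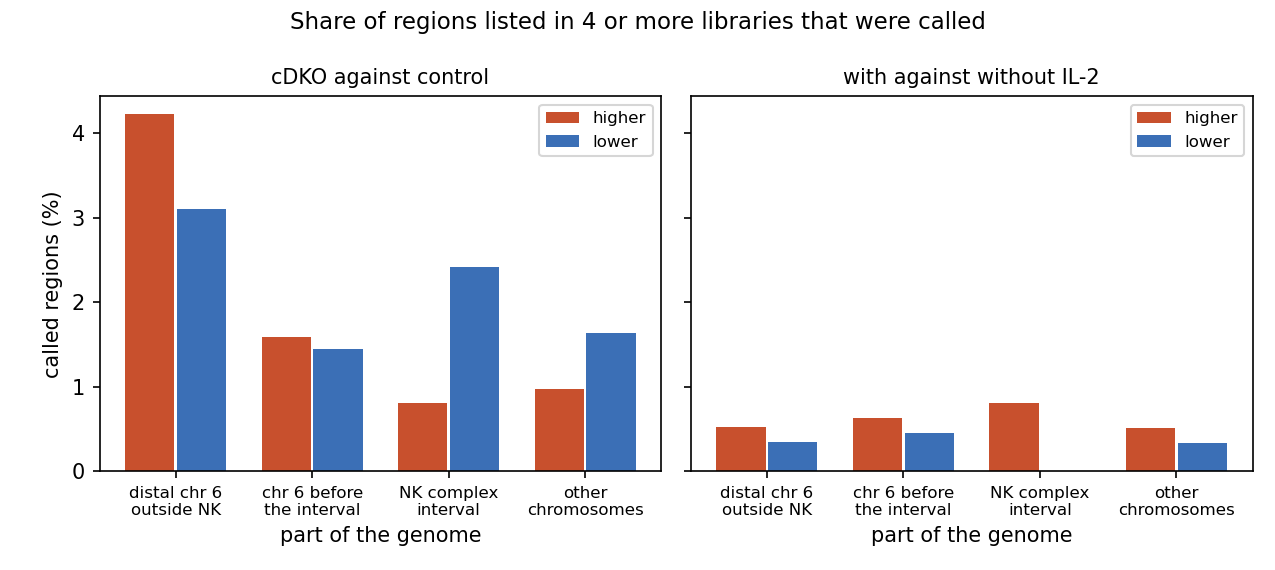
Bars give the percentage of regions listed in 4 or more libraries that were called higher (red) or lower (blue), for cDKO against control (left) and with against without IL-2 (right), in 4 parts of the genome. The distal chromosome 6 bars reach 4.22% and 3.10% for genotype and 0.517% and 0.345% for IL-2; counts have no error bar because each is over all 8 libraries together.

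A call allows a weaker peak further down the other genotype's deposited lists. Of the 49 members higher in cDKO, 13 were in no control list of any length, 11 in 1, 15 in 2, 10 in 3 and none in all 4. No higher member could be in all 4, because the full list of control plus IL-2 replicate 2 is its equal-number list. Of the 36 lower in cDKO, 16 were in no deposited cDKO list, 8 in 1, 4 in 2, 3 in 3 and 5 in all 4. Every cDKO full list runs past the cut, so the directions differ in what was possible. Calls made with equal-number and with full lists alike, the strict calls below, thus comprised 13 higher members (1.12%, against 0.0449% over all regions) and 16 lower ones (1.38%, against 0.203%). Full lists alone gave 48 higher members (2.78%, against 0.527%) and 39 lower (2.26%, against 0.518%). Only 29 regions of the whole genome were higher in cDKO in this strict sense, and 13 of them were members.

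Each genotype call was present in both IL-2 arms by construction, and the arms taken singly gave more. Without IL-2, 112 of 1247 members were in both cDKO lists and neither control list (8.98%, against 5.40% over all regions), and 96 showed the reverse (7.70%, against 5.86%). With IL-2, 102 of 1203 were higher (8.48%, against 5.10%) and 89 lower (7.40%, against 5.62%). The part of chromosome 6 before the interval lay closer to the members. Its higher shares were 6.98% in the arm lacking IL-2 and 6.43% in the other arm, and its lower shares 5.81% and 6.30%. For the NK complex interval the higher shares were 3.82% and 3.68% in that order. Its lower share was 4.58% of 131 regions in the first arm. In the arm given IL-2 it was 8.09% of 136, above that of the members. With full lists, 107 members were higher without IL-2 (5.48%, against 2.45%) and 166 lower (8.5%, against 6.26%), and with IL-2 170 were higher (9.64%, against 6.39%) and 70 lower (3.97%, against 1.64%). The 85 members called over all 8 libraries were called the same way in both arms. A further 123 were called only without IL-2 and 106 only with it. No member was called in opposite directions in the 2 arms. Whether a call made in 1 arm alone differed between the arms was not tested.

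The similarity of whole sets of listed members followed the same order. The Jaccard index, the number of members that 2 libraries share over the number that either lists, averaged 0.744 between replicates (range 0.665 to 0.788, 4 pairs). Libraries of the same genotype with and without IL-2 averaged 0.723, and libraries of different genotype in the same IL-2 arm averaged 0.641 (range 0.607 to 0.673, 8 pairs). On the other chromosomes the same averages were 0.762, 0.731 and 0.700.

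Called members were not spread evenly along the interval. Joining neighbouring called members at most 1 Mb apart, a distance chosen after seeing the data, gave 3 runs of 10 or more that held 74 of the 85. The first run, 114502244 to 116697732 from Hrh1 to Tmem72, held 15 higher and 3 lower members among 135 listed in 4 or more libraries (13.3%). The second, 134078088 to 137795766 from Etv6 to Dera, held 12 higher and 14 lower among 174 (14.9%). The last, 142519183 to 147607124 from Ldhb to Ccdc91, held 17 higher and 13 lower among 261 (11.5%). Between the first and second runs, 10 of 441 members were called (2.27%), among them regions near Cd27, Klrg1 and Slc2a3. Between the second and last runs, none of 41 was called, and none of 39 after the last. With gaps of 0.5 Mb the runs of 10 or more held 43 called members, and with gaps of 2 Mb they held 75. Runs were drawn by the calls and begin and end at called members. Their higher shares than the stretches between them thus follow in part from how they were drawn.

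**Figure D2:**
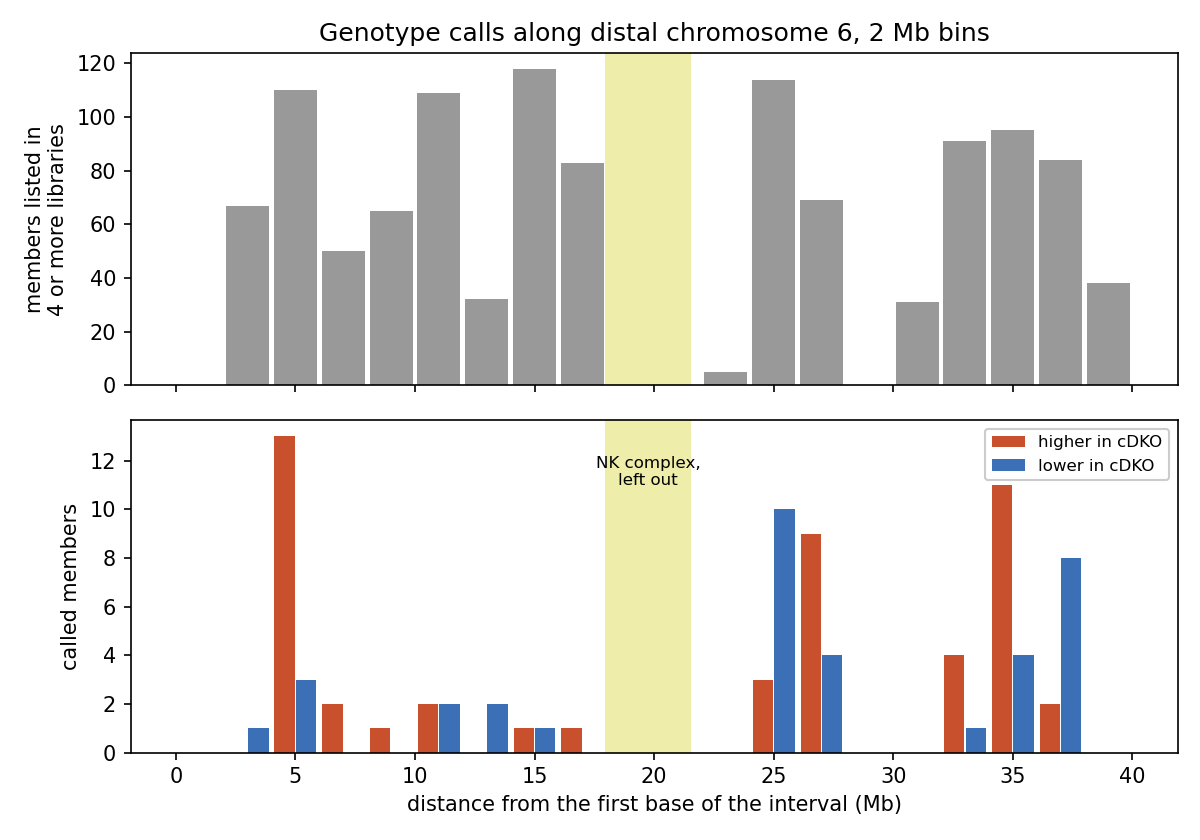
The upper panel counts members listed in 4 or more libraries in 2 Mb bins, by distance from the first base of the interval, and the lower panel counts members called higher (red) or lower (blue) in cDKO. The bin 4 to 6 Mb from the interval's start holds 13 higher and 3 lower members, and the NK complex interval (yellow) is left out.

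The densest group of calls lay in the gap between Hrh1, the histamine H1 receptor, and Atg7, an E1-like enzyme of autophagy. From 114502244 to 114629569, a span of 127.3 kb, 12 members were listed in 4 or more libraries and all 12 were called higher in cDKO. Neither gene body holds any of these 12. The span has 79 union regions, of which 31 were in an equal-number list. Equal-number lists held 18 and 16 of them in cDKO and 18 and 16 in cDKO plus IL-2, but 0 and 1 in control and 0 and 4 in control plus IL-2. In the full lists the span held 42, 48, 35 and 48 regions in the cDKO libraries and 21, 6, 15 and 4 in the control libraries. The cDKO and control libraries did not overlap in either count, but the span was drawn by its calls. By definition, each of the 12 calls adds 1 to every cDKO count and nothing to a control equal-number count. The separation is thus not independent of the calls.

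Individual peaks in that span were of modest height. Fold over background is the authors' own value for each peak in its own library, and is set side by side here only to describe it. The member at 114553099 to 114553348, 69.9 kb from Hrh1, had folds of 6.59 and 7.46 in cDKO and 7.65 and 6.53 in cDKO plus IL-2, and no peak in any control list. The member at 114547940 to 114548338, 64.8 kb from Hrh1, had folds of 6.78, 5.89, 5.11 and 5.64 in the same order. Both were thus found in all 4 cDKO lists and in no control list of any length. On the Atg7 side, the member at 114619170 to 114619465, 23.8 kb from the gene, had folds of 8.93, 6.05, 6.22 and 7.08 and no control peak. Members at 114565294, 114599605 and 114629028 were in no control list either, with cDKO folds from 4.56 to 6.12. Inside the Atg7 gene body, 114657748 to 114658098 was lower in cDKO, with folds of 7.23 and 4.58 in control and 5.38 and 3.54 in control plus IL-2, and a single lower-ranked cDKO peak of 5.37. Another member inside Atg7, 114680597 to 114681443, was in all 8 libraries with better ranks in every cDKO library (1.26 times).

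**Figure D3:**
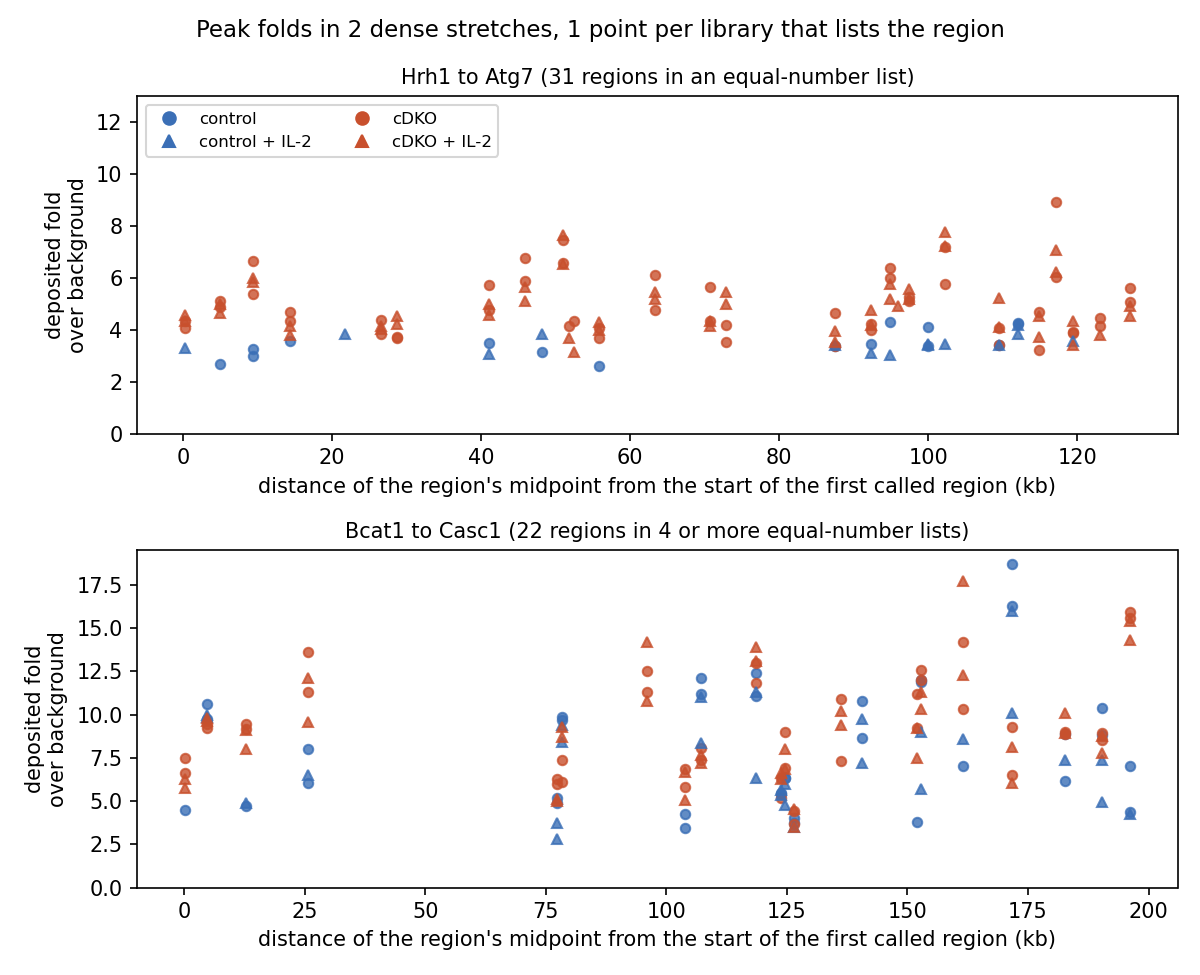
Points give the deposited fold over background of each region in each library that lists it at any rank, by distance along the Hrh1 to Atg7 span (upper panel, 31 regions) and the Bcat1 to Casc1 span (lower panel, 22 regions). Control libraries are blue, cDKO libraries red, and triangles mark added IL-2; the upper panel is mostly red points, while the lower panel mixes both. The Casc1 member at the right edge is at 14.3 to 15.9 in the cDKO libraries and 4.28 to 7.01 in the 3 control libraries that list it.

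The Bcat1 to Casc1 span, 144997303 to 145193817, held the best-ranked strict call towards cDKO. It contained 22 members listed in 4 or more libraries, of which 7 were higher and 1 lower in cDKO. The member at 145093014 to 145093770, 17.2 kb from the Bcat1 gene body, had folds of 12.5 and 11.3 in cDKO and 14.2 and 10.8 in cDKO plus IL-2. No control list of any length held it, and it was within the best 11043 peaks of every cDKO library.

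Bcat1 had higher calls inside its body, while its promoter region ranked better in control. Members at 144997303 and 145009894, inside the gene, were in all 4 cDKO equal-number lists, at folds of 5.74 to 9.46, and in no control one. The region over the Bcat1 start shown above, 145075004 to 145076243, was listed in all 8 libraries. Its ranks were 16503, 13175, 15372 and 13204 in the control libraries and 44767, 33636, 21619 and 20466 in the cDKO libraries, where rank 1 is the strongest peak. The best cDKO rank was thus 1.24 times the worst control rank.

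Next to Bcat1 lies Lrmp, a lymphoid-restricted membrane protein of the endoplasmic reticulum, which had calls in both directions. Inside the gene, 145133187 to 145133787 had folds of 7.30 and 10.9 in cDKO and 10.2 and 9.42 in cDKO plus IL-2 and no control peak. The next called member along the chromosome, 145137522 to 145137993 had folds of 10.8 and 8.64 in control and 9.76 and 7.18 in control plus IL-2 and no cDKO peak. These neighbours were exclusive to opposite genotypes. A member at 145168852 to 145169185 was listed in all 8 libraries, but its control ranks, 8052 to 20582, were all better than its cDKO ranks, 40271 to 61111. Casc1, next to Lrmp, held a higher member at 145193266 with folds of 15.6, 15.9, 14.3 and 15.4 in the cDKO libraries. Its control folds in the full lists were 7.01, 4.35 and 4.28. Control plus IL-2 replicate 2, whose full list ends at the cut, lacked it.

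Etv6, an ETS-family transcriptional repressor, had 5 calls inside its gene body, alternating in direction along 0.131 Mb. Members at 134078088, 134173473 and 134208845 were lower in cDKO and those at 134156227 and 134183686 were higher. The member at 134173473 to 134173958 had folds of 9.74 and 6.94 in control and 9.82 and 8.93 in control plus IL-2. The member at 134208845 to 134209105 had folds of 7.06 and 5.48 in control and 6.46 and 5.70 in control plus IL-2. No cDKO list held either. The higher member at 134156227 had cDKO folds of 7.68, 7.03, 8.60 and 9.36, and a single control peak of 3.16 in a full list. Etv6 has 28 members listed in 4 or more libraries, and 16 were in all 8 libraries.

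Distal to Etv6, calls of both directions lay within 0.228 Mb from Gucy2c to Rerg. Gucy2c encodes guanylate cyclase C, a receptor of gut epithelium, and Rerg encodes a Ras-like growth inhibitor. The Pde6h member with the promoter shown above, 136953831 to 136954508, had folds of 13.3 and 10.1 in cDKO and 13.1 and 11.5 in cDKO plus IL-2 and no control peak. It overlaps 236 of the 250 bases of the printed window. The member at 136787319, 5.73 kb from Gucy2c, had cDKO folds of 7.46, 12.1, 10.4 and 10.1 and no control peak. Against these, 136835493 to 136835823 inside BC049715 had folds of 12.5, 9.19, 11.5 and 7.44 in the control libraries and no cDKO peak. The member at 137002745 to 137003317, 39.5 kb from Pde6h, had control folds of 9.18, 10.8, 10.2 and 10.2 and no cDKO peak. The strict calls of this stretch were therefore 2 higher and 2 lower.

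Arhgdib, a GDP-dissociation inhibitor that is abundant in blood cells, showed both directions at neighbouring regions. The member at 136930530 to 136931135 was in all 8 libraries, with ranks of 593, 614, 736 and 337 in the cDKO libraries and 5461, 3537, 2387 and 7352 in the control libraries. Its best control rank was 3.24 times its worst cDKO rank, more than for any other member listed in all 8. The next region, 132 bp away at 136931268 to 136931511, was called lower in cDKO, with control folds of 5.21, 4.45, 3.85 and 4.83. Both cDKO libraries with IL-2 held that region at folds of 3.32 and 4.24 in their full lists.

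Eps8, a regulator of actin and growth factor receptor signalling, had 3 higher members and no lower one inside its body. The member at 137541325 to 137541959 had folds of 15.7 and 15 in cDKO, 12.6 and 11.7 in cDKO plus IL-2, and 4.35 in control replicate 2, the only control list with it. The member at 137491684 had cDKO folds of 11, 14.6, 11.3 and 12.8 and control folds of 3.77 and 3.8 without IL-2. All 4 cDKO values of each exceeded every control value. This largely follows from the call, which leaves only control peaks ranked beyond the equal-number cut.

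In a stretch near the end of the interval, calls were in 1 direction, lower in cDKO. From 146530224 to 146793840, between Ints13 and Arntl2, 7 of 26 members listed in 4 or more libraries were lower and none was higher. A further member there, inside Stk38l at 146734025 to 146734776, was in all 8 libraries and ranked the other way, with cDKO ranks of 12277 to 17730 and control ranks of 23847 to 30029. Med21 encodes a subunit of the Mediator complex, Stk38l an NDR-family kinase, and Arntl2 a clock transcription factor. The member at 146671361, 21.0 kb from Med21, had control folds of 7.38, 6.78, 7.50 and 6.21. The member at 146702238, 22.3 kb from Stk38l, had control folds of 11.3, 8.92, 9.93 and 7.90, and the member at 146620845, inside Tm7sf3, had 10.7, 9.68, 9.62 and 8.77. No cDKO list of any length held these 3. The member at 146793623, 0.998 kb from Arntl2, was likewise in no cDKO list, with control folds of 7.47, 5.35, 7.81 and 5.96. Of the 7 lower members, 5 were strict calls. Those at 146668538, near Med21, and 146697862, near Stk38l, were in all 4 cDKO full lists. At the first, folds overlapped, from 4.16 to 5.74 in control libraries and 4.51 to 5.66 in cDKO libraries. At the second they were 4.77 to 6.88 and 3.69 to 4.74.

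**Figure D4:**
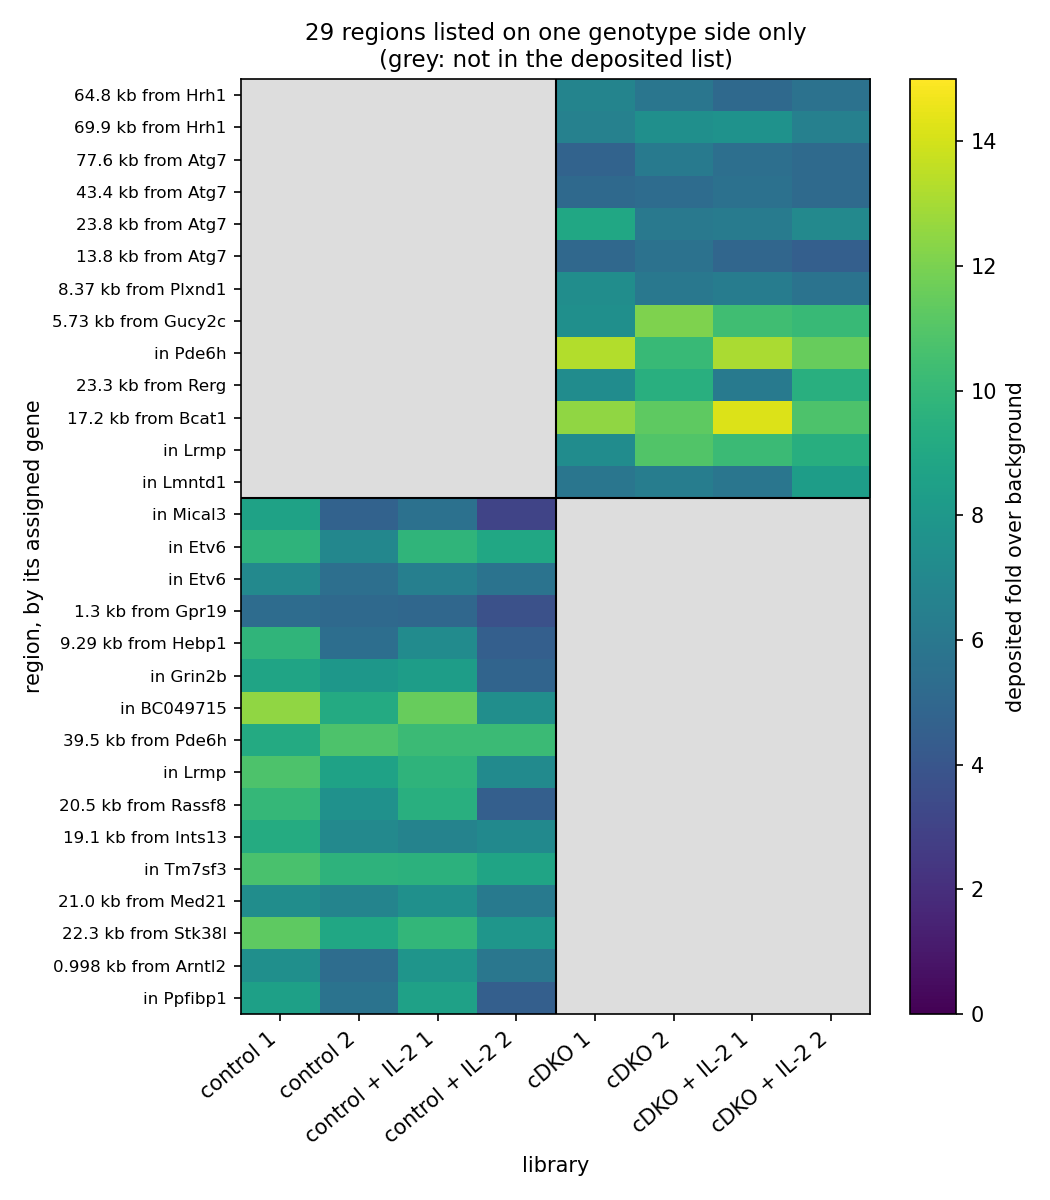
Each line is 1 of the 29 members called with equal-number and full lists alike, each column is a library, and colour gives the deposited fold over background (grey: no peak in that library's full list). The 13 upper lines are in all cDKO libraries only and the 16 lower lines in all control libraries only; the brightest upper cell is 14.2 at the Bcat1 member and the brightest lower cell is 12.5 at BC049715.

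Of the remaining strict calls, higher ones lay 8.37 kb from Plxnd1, a semaphorin receptor (folds 5.70 to 7.35), 23.3 kb from Rerg (6.15 to 9.47) and inside Lmntd1 (5.86 to 8.33). Lower ones lay inside Grin2b, an NMDA receptor subunit (folds 4.81 to 8.78), 1.3 kb from Gpr19, an orphan receptor (3.70 to 5.30), and 20.5 kb from Rassf8, a Ras-association protein (4.54 to 10.0). Members inside Mical3 and Ppfibp1 and near Hebp1 and Ints13 completed the 16 lower ones.

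Neighbouring calls shared their direction only in part. Of 84 pairs of called members next to each other along the interval, 53 had the same direction, with a median distance of 79.8 kb. Within 50 kb, 25 of 38 pairs had the same direction. At the level of genes, 254 genes had a member listed in 4 or more libraries, and 47 of them had a call. Of the 47, 19 had higher calls only, 20 had lower calls only, and 8 had both.

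Lists of the interval's genes by role, 93 genes in 8 lists, showed where calls fell. Over all regions the shares called were 1.05% higher and 1.66% lower, and over all members 4.22% and 3.10%. Metabolism and autophagy had 10 higher and 2 lower members of 77 (15.6%). The higher ones were at Atg7, Bcat1 and the lactate dehydrogenase gene Ldhb, and the lower ones were at Atg7 and the glucose transporter gene Slc2a3. The 6 higher Atg7 members lie 13.8 to 77.6 kb from the gene. Counting only gene bodies and 10 kb around them left 12 of the 28 higher members at listed genes. Neural and muscle genes had 6 higher and 1 lower of 46 (15.2%), where all 6 higher members were those assigned to Hrh1, 19.1 to 69.9 kb from it. These 6 and the 6 higher Atg7 members are the 12 called members of the 127.3 kb span described above. Signalling genes had 6 higher and 7 lower of 114 (11.4%), with Eps8 and Lrmp among the higher and Stk38l and Lrmp among the lower. Transcription and chromatin genes had 5 higher and 9 lower of 137 (10.2%). The higher ones were at Etv6 and Sox5, and the lower ones at both of these and at Med21, Arntl2 and the TEAD cofactor gene Vgll4. The 8 lists together had 9.94% of 483 members called, and members at other genes 5.46% of 678.

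Of 52 members at 13 immune receptor and mediator genes, 1 was higher and 1 lower (3.85%), where the shares over all regions were 1.05% higher and 1.66% lower. The higher one lay 1.46 kb from Cd27, a costimulatory receptor of the TNF receptor family, at cDKO folds of 4.65, 4.40, 5.15 and 4.36. Its control folds in the full lists were 3.53, 2.63 and 3.11. Control plus IL-2 replicate 2, whose full list ends at the cut, had no peak there. The lower one lay 12.4 kb from Klrg1, an inhibitory lectin-like receptor, at control folds of 8.20, 7.07, 7.32 and 5.49. Both cDKO libraries without IL-2 held it at 5.27 and 4.34 in their full lists. Cd4, with 5 members listed in 4 or more libraries, and Lag3, with 5, had no call. By rank, 8 of the list's 34 members in all 8 libraries were better in every cDKO library and 1 in every control library, where the interval had 59 and 40 of 655 and all regions 6.15% and 5.72%. Of the 8, 2 were at Lag3 and 3 at the tetraspanin gene Cd9. None of 47 members at 13 genes of cell cycle, DNA repair and survival was called, among them 17 at Ccnd2 and 6 at the cell cycle inhibitor gene Cdkn1b. None of 7 members at myeloid and B cell genes, and none of 3 at germline and pluripotency genes, was called.

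Called members lay away from gene ends. Their median width was 393 bp, against 519 bp for the 1076 members listed in 4 or more libraries and not called. Only 2 of 85 were within 1 kb of a gene end (2.35%) and 1 overlapped a promoter window, that of Pde6h. Of the members not called, 21.3% were at a gene end and 16.2% overlapped a promoter window. Regions listed in all 8 libraries cannot be called, and they are wide and often at gene ends (680 bp, 28.5%). The 94 members listed in exactly 4 libraries and not called, which have the same number of libraries as the called ones, had a median width of 323 bp and 10.6% at gene ends. The median distance to the nearest chromosome 6 region listed in all 8 libraries, member or not, was 14.6 kb for the higher calls. It was 7.45 kb for the lower calls and 7.58 kb for those 94. A gene body held 52.9% of the called members and 58.5% of the 94.

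Members open in every library also separated by genotype, in their ranks. Of the 655 in all 8 equal-number lists, 59 had better ranks in every cDKO library than in any control library (9.01%, against 6.15% over all such regions). Another 40 had better ranks in every control library (6.11%, against 5.72%), a share close to that of the genome. In the NK complex interval the shares were 10.1% and 6.33% of 79 regions, both above those of the members. On chromosome 6 before the interval they were 6.58% and 5.47%. After Arhgdib, the widest separations towards cDKO were a region with no protein-coding gene within 100 kb at 143326806 to 143327384, where the best control rank was 1.77 times the worst cDKO rank, and one inside Irak2, a kinase of interleukin-1 receptor signalling, at 1.76 times. The Irak2 member, 113681040 to 113681844, had cDKO ranks of 4946, 5790, 3773 and 6689 and control ranks of 11763, 12575, 13600 and 15730. Those near Lpar5, a lysophosphatidic acid receptor (1.68 times), and St8sia1, a ganglioside sialyltransferase (1.65 times), followed. All 5 were thus stronger peaks of cDKO libraries in rank, without being absent from control.

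Towards control, the widest rank separations were inside Vgll4 and 35.7 kb from Med21 (both 1.99 times), in Lrmp (1.96 times), in Efcab12 (1.94 times) and in Gucy2c (1.90 times). The Vgll4 member, 114861125 to 114861711, had control ranks of 11350, 13365, 7926 and 11136 and cDKO ranks of 62050, 42341, 33869 and 26616. The Efcab12 member had folds of 12.1 to 14.6 in the control libraries and 14.7 to 15.5 in the cDKO libraries, so that its folds and its ranks pointed opposite ways, each without overlap. The Caprin2 promoter shown above, at 148895317 to 148896757, had cDKO ranks of 4326, 3661, 1769 and 1738 and control ranks of 9570, 7537, 8389 and 6096.

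Added IL-2 was compared with no IL-2 over all 8 libraries, 4 on each side. Only 6 members were higher with IL-2 (0.517%, against 0.517% over all regions) and 4 were lower (0.345%, against 0.341%), so the interval's shares were those of the genome. Higher members lay inside Tmcc1, Etnk1, an ethanolamine kinase, Atg7 and Lrp6, a Wnt co-receptor, and 15.6 kb from Bicd1 and 38.9 kb from Syn2. Lower members lay inside Ift122, 3.92 kb from Usp18, which removes ISG15 from proteins, 18.6 kb from Lmntd1 and 17.1 kb from Bhlhe41, a clock-related repressor. The Etnk1 member at 143174743 had folds of 4.84, 4.56, 5.26 and 5.18 with IL-2 and lower-ranked peaks of 4.0, 3.58, 4.04 and 3.60 without. The Usp18 member at 121241895 had folds of 5.85, 5.78, 4.73 and 5.36 without IL-2 and a single lower-ranked peak of 4.64 with it. By construction, none of these 10 members can be called for genotype. With full lists 1 member was higher (0.0580%, against 0.0572%) and 8 were lower (0.464%, against 0.396%) with IL-2. Without control replicate 1, the counts were 12 higher and 9 lower, and without replicate 1 of control plus IL-2, 13 and 7. Without control replicate 2, 11 members were lower, and without replicate 1 of cDKO plus IL-2, 10 were.

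Within control cells, 34 members were higher with IL-2 (2.89%, against 3.38%) and 47 lower (4.0%, against 3.55%). Within cDKO cells, 35 were higher (2.95%, against 3.97%) and 45 lower (3.79%, against 4.19%). With full lists the control counts were 6 higher (0.322%, against 0.376%) and 102 lower (5.47%, against 5.76%), and the cDKO counts 71 higher (3.88%, against 3.94%) and 75 lower (4.10%, against 3.45%). Ranks of members listed in all 8 libraries separated by IL-2 for 20 members in favour of IL-2 (3.05%, against 2.77%) and 21 in favour of no IL-2 (3.21%, against 3.01%). The interval's shares stayed within 1.5 times those of the genome in each of these comparisons.

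Of 4 values per library compared between the IL-2 arms, none passed the test. Libraries with IL-2 listed 1103.2 ± 18.3 members (SD, n = 4) and those without 1126.8 ± 25.4 (n = 4; exact 2-sided permutation p = 0.171, adjusted 0.381). The median peak width was 321.0 ± 25.7 bp with IL-2 and 341.5 ± 18.4 bp without (exact permutation p = 0.286, adjusted 0.381). The median rank was 33995.2 ± 571.7 with IL-2 and 33795.5 ± 414.0 without (exact permutation p = 0.629, adjusted 0.629). The share of listed members at gene ends was 20.7% ± 0.871 with IL-2 and 19.9% ± 0.657 without (exact permutation p = 0.229, adjusted 0.381). With 70 relabellings, the smallest p this test can give is 0.0286.

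The regions just inside and just outside the edges of the interval were in 0 to 2, 7 or 8 equal-number lists, so none of them could be called for genotype. The nearest regions before the interval, at 109505222 and 109505371, were in no equal-number list. The first member, at 112191197, was in none either, and the next, at 112197481 and 76.1 kb from Lmcd1, was in all 8, with folds from 6.11 to 15.9. At the start of the NK complex both sides lie in Tspan9: 127991491 was in all 8 lists and 128001545, just outside, in 7. The member at 127993956 was in 2 lists and the region at 128003588, outside, in 1. At the end of the complex the regions at 131433569 and 131452124, outside, were in 1 and 0 equal-number lists, and the members at 131501635 and 131513514 were in none.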

How the data were processed

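The authors deposited 1 MACS2-format peak list for each of the 8 libraries, and gave each peak its coordinates, its summit offset, its fold or ratio over local background and its −log10 p-value. The deposited −log10 q-value was used only to state the threshold, and the deposited score not at all. Per the submitters' processing notes, the tools were MACS2 2.2.7.1, Bowtie2 2.4.1, SAMtools 1.3.1, Picard, Trimmomatic 0.39, HOMER 4.11.1, DiffBind 2.10.0 and ChIPseeker 1.18.0, and the build was GRCm38 (mm10). The notes give no role or order. How reads were shifted and deduplicated, and the peak caller's settings, are not stated there. Each library has a list of its own, and the largest q-value in each deposited list was 0.05 or less.

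Peaks of all lists were merged at 1 bp of overlap or more. Calls, shares and ranks used the top 65811 peaks of every list, ordered by −log10 p. A rank is a peak's place in that order. Shares are over regions in at least 4 of 8 lists, or at least 2 of the 4 lists in a comparison within an arm. Genes are protein-coding RefSeq genes of GRCm38.p6: the smallest body that holds the region's midpoint, or else the nearest body within 100 kb. Exons, introns and untranslated regions were not analysed here, and no genome sequence was used. Some results are not reported here. The IL-2 arms were compared for 4 values per library by exact 2-sided permutation, with Benjamini-Hochberg adjustment over 4. Python 3.11.15, NumPy 2.4.6, pandas 2.3.3, SciPy 1.17.1 and Matplotlib 3.10.9 were used, and the calling steps were tested on simulated lists.

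The members and the gene lists were chosen with earlier results of these data known. Named regions are up to 12 strict genotype calls per direction by the smallest worst rank, up to 5 IL-2 calls per direction, up to 4 genes per gene list, up to 5 rank separations per direction, promoter members and the regions at the edges. The other regions named in the spans from Hrh1 to Atg7, Etv6, Gucy2c to Rerg, Eps8, Bcat1 to Casc1 and Ints13 to Arntl2, the IL-2 members past the first 5 and the last strict calls were named after their values were seen. Alternatives were full lists, lists of 32905 peaks, peaks covering 50% of a region, a looser call, each library left out, a replicate block, and genes within 10 kb.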

Additional observations from a re-analysis of the deposited data

How the results depend on the processing

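With lists of 32905 peaks, 17 members were higher and 16 lower in cDKO, and calls from at least 3 libraries on one side and at most 1 on the other gave 140 and 128. With each library left out in turn, which loosens the rule, the counts were 52 to 64 higher and 38 to 53 lower. For IL-2, full lists gave 1 higher and 8 lower, the looser call 47 and 58, and leaving out libraries 6 to 13 and 4 to 11. Without IL-2, the genotype counts were 49 higher and 43 lower with 32905 peaks, 166 lower with full lists, and 160 to 184 and 126 to 166 with a library left out. With IL-2 they were 49 and 42 with 32905 peaks, 170 higher with full lists, and 173 to 181 and 114 to 207 with a library left out. The IL-2 counts in control cells were 6 higher and 102 lower with full lists, 19 and 23 with 32905 peaks, and 60 to 154 and 91 to 142 with a library left out. In cDKO cells they were 71 and 75 with full lists, 72 lower where peaks had to cover 50% of a region, and 60 to 101 and 88 to 116 with a library left out. Where a library is left out of a comparison of 2 against 2, the remaining one stands alone on its side, so these counts are values with no replicate check.

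The IL-2 difference in median width, −20.5 bp, turned to 9 bp with full lists (exact permutation p = 0.771). The difference in median rank, 199.8, turned to −5152.1 with full lists (p = 0.543, exact permutation), −37.2 with 32905 peaks (p = 0.83, exact permutation), −1226.6 with 50% cover (p = 0.200, exact permutation) and −81.8 without replicate 2 of control plus IL-2 (p = 0.80, exact permutation). No alternative brought any of the 4 values per library to 0.05. Neither the replicate block nor the tests with a library left out could have done so, for want of relabellings. With a library left out, the differences ranged from −32.4 to −12.8 members, −27.7 to −8.5 bp, −81.8 to 324.3 ranks and 0.423 to 1.14 percentage points. Rank separations fell to 31 towards cDKO and 18 towards control with 32905 peaks, and to 23 towards control with 50% cover; with a library left out they were 68 to 87 and 47 to 60. Calling genes only within 10 kb left 12 of the 28 higher members at listed genes.

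With replicate numbers as a block, the IL-2 difference in members listed, −23.5, had an exact permutation p of 0.125, and width, rank and gene-end share had 0.250, 0.50 and 0.125. The smallest p this block allows is 0.125, reached by members listed and gene-end share. Correlations of same-numbered deviations ran from −0.197 to 0.376 over 6 pairs of groups, with 0.376 between the control arms. The numbers were not taken to pair the libraries, since not every pair was above 0.1.

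The cause of these changes was not tested. Lists of peaks hold no counts, so a missing peak is one that did not pass the authors' threshold and not a measured zero. List length differs between libraries, and read depth is unknown.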
